A study of Homo sapiens with 9 samples.

Results

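Aminoacyl-tRNA synthetases are the enzymes that join each amino acid to its transfer RNA (tRNA), the step that fixes the genetic code before translation begins. Most amino acids are served by one enzyme in the cytosol and by another, encoded by a separate nuclear gene, that works in mitochondria. Members were taken as the protein-coding genes whose symbol follows the pattern of this family, that is 1 or 2 letters for the amino acid and ARS with or without a final 1, 2 or 3, together with EPRS1, FARSA and FARSB. The rule used no measured value, and it found 38 of the 62710 genes in the deposited table. Of these, 21 are described as cytosolic and 17, whose names end in 2, as mitochondrial. GARS1 and KARS1 each encode both the cytosolic and the mitochondrial enzyme and are counted with the cytosolic ones. QARS1 has no mitochondrial partner, because mitochondria charge glutamine tRNA through an amidotransferase.

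The cells were A375R, a human melanoma line resistant to the kinase inhibitor PLX4032 and cultured with 2 µM PLX4032 as the study's methods state. The 3 treatments were DMSO, 10 µM VHL-r and 10 µM R4VPL3-1, each with 3 biological replicates, so 9 libraries of poly(A) RNA in all; both compounds were given for 2 h. VHL-r is the moiety that binds the ubiquitin ligase VHL, alone, and R4VPL3-1 is the full PROTAC-like molecule, in which a moiety that binds the ubiquitin ligase RNF4 is linked to it. The control libraries carry a label for wild type without a dose or a time, and they are called DMSO here after the design text. In the deposited table, the headings of DMSO replicates 2 and 3 also carry 2 h, and that of DMSO replicate 1 carries no time. The recovered libraries held 26435568 to 32085626 reads, with a median of 28165279. Of 12 markers of melanoma and neural crest cells, 10 were high enough to be tested, SOX10, CSPG4 and PRAME among them. MLANA was listed at 0, and TYR averaged 0.354. Of 7 markers of keratinocytes, leukocytes and endothelium, 4 were tested: the keratins KRT10, KRT14 and KRT5, with means of 1810.3, 294.7 and 17.35 normalized counts, and VWF with 15.92. PTPRC, CD3E and PECAM1 were below the test's minimum mean.

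When amino acids or charged tRNAs run short, the kinase GCN2, encoded by EIF2AK4, senses uncharged tRNA and phosphorylates the translation factor eIF2. Translation of the transcription factor ATF4 then rises. ATF4 is known to act through a composite element with the letters TGATGNAA, and several cytosolic synthetase genes are textbook targets of it. The promoter windows from RefSeq (GRCh38.p14), which run from 250 bases before to 50 bases after each annotated start, held a window for 30 of the 38 synthetases, 16 cytosolic and 14 mitochondrial. AARS2 and TARS3 were among those without a window, so no pattern of letters could be searched for in them. Searched on both strands, TGATGNAA lay in a window of 8 of these 30 genes, which is 26.7%, against 1217 of 27305 genes with a window, or 4.46%. It was found in 7 of 16 cytosolic genes (43.8%) and in 1 of 14 mitochondrial genes, YARS2. The stretches around it are shown because they mark the synthetase genes that share letters with known ATF4 targets, and they are read on the strand that carries the motif, with TGATGNAA in capitals.
AARS1, chr16:70289675-70289704, plus strand: tctaacttggcTGATGCAActgcgagaaaa
CARS1, chr11:3057407-3057436, plus strand: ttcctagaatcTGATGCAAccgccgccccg
GARS1, chr7:30594834-30594863, minus strand: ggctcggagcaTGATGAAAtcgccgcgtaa
IARS1, chr9:92293692-92293721, plus strand: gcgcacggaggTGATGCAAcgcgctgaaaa
MARS1, chr12:57488053-57488082, minus strand: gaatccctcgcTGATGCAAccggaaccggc
NARS1, chr18:57621804-57621833, minus strand: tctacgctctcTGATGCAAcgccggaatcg
TARS1, chr5:33440956-33440985, minus strand: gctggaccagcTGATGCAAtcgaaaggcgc
YARS2, chr12:32756076-32756105, minus strand: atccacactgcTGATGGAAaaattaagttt

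For comparison, 5 of 15 genes of a list of other known ATF4 targets with a window held the motif, and 4 of these 5 were tested in these cells. Their stretches follow, in the same form.
ATF3, chr1:212565205-212565234, plus strand: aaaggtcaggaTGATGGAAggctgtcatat
CEBPG, chr19:33374060-33374089, plus strand: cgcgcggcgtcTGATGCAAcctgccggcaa
CHAC1, chr15:40953251-40953280, minus strand: cctggcaggagTGATGCAAcggcaggggag
SLC3A2, chr11:62881725-62881748, minus strand: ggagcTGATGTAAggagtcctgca
The fifth holder, ASNS, was listed at 0 in all 9 libraries. A match is a description of letters and does not show that the factor binds there.

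Values are normalized counts, the reads assigned to a gene divided by a size factor of its library, and levels between genes are compared per kb of the canonical transcript. In DMSO, cytosolic synthetases had a median level of 2542 normalized counts per kb (107 to 7382 over 21 genes), and mitochondrial ones had a median of 473.6 (14.94 to 2424 over 15 genes). FARSA, the catalytic subunit of the cytosolic phenylalanine enzyme, stood highest at 7382 ± 384.6 per kb (SD, n = 3), followed by KARS1, the lysine enzyme, at 6203 ± 65.5 and RARS1, the arginine enzyme, at 4967 ± 114.5. The highest mitochondrial enzyme was the isoleucine enzyme IARS2, at 2424 ± 53.4 per kb, ahead of CARS2 for cysteine at 2050 ± 36.6. FARSB, which encodes the other subunit of the phenylalanine enzyme, stood at 441.3 ± 22.5 per kb, on a canonical transcript of 6761 bases against 1811 for FARSA. TARS3, a further threonine enzyme, was the lowest cytosolic member at 107 ± 2.49 per kb. In this order, 10 of 35 neighbouring pairs had overlapping replicates in DMSO, among them TARS1 and YARS1, QARS1 and EPRS1, IARS2 and WARS1, and TARS3 and PARS2.

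**Figure D1:**
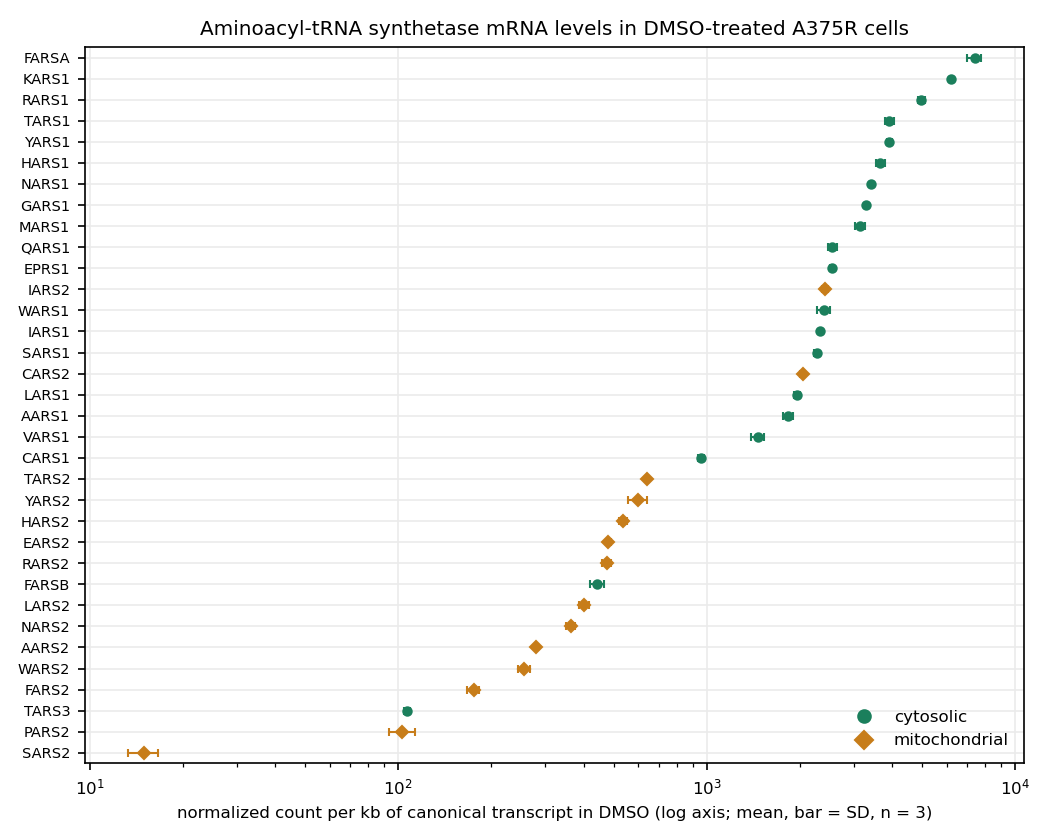
Level of 34 of the 36 tested synthetases in DMSO, as normalized count per kb of canonical transcript on a log axis, with points for the mean and bars for the SD of 3 libraries. Circles mark cytosolic and diamonds mitochondrial genes; FARSA stands at the top at 7382 and SARS2 at the bottom at 14.94.

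The remaining members, VARS2 (ENSG00000137411, chromosome 6 from 30914205 to 30926459) and MARS2 (ENSG00000247626, chromosome 2 from 197705369 to 197708395), the mitochondrial valine and methionine enzymes, were listed at 0 in all 9 libraries and were not tested. For VARS2, 94.4% of the 100-base windows of its canonical transcript also occur in the transcripts of another gene on the same strand, and for SARS2, the mitochondrial serine enzyme, 76.4% do. The counting program drops reads that fall on 2 genes, so the SARS2 values, with a mean of 28.75 normalized counts in DMSO, are those of the part of the gene it does not share. For MARS2 no window was shared. Among the other 35 members only EARS2, with 2.06% shared with GGA2, and HARS2, with 2.24% shared with ZMAT2, had any shared window.

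In R4VPL3-1 against DMSO, 4 of the 36 synthetases tested were called at a limma adjusted p of at most 0.05, which is 11.1%, against a background of 24.9% of the 15230 genes tested (13.1% higher and 11.8% lower). The mitochondrial alanine, glutamate and histidine enzymes AARS2, EARS2 and HARS2 fell, and TARS3 rose. All 4 changes were small: TARS3 rose by 24.7%, and AARS2, EARS2 and HARS2 fell by 11.7%, 12.4% and 11.4%, as computed from the log2 fold change of log2(value + 1). Of the 21 cytosolic enzymes 1 was called and 20 did not pass the test, with a median log2 fold change of 0.0069. Of the 15 mitochondrial enzymes 3 were called, all lower, with a median of -0.059, and the median over all genes tested was -0.0063. In 7 of the 36 genes the replicates of both treatments did not overlap, 1 higher and 6 lower, against 38.0% of all genes tested (19.1% higher and 18.9% lower).

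In VHL-r against DMSO, 3 of 36 synthetases were called, 8.33% against a background of 19.8% (10.3% higher and 9.51% lower). EARS2 and HARS2 were lower and TARS3 was higher. The median log2 fold change was -0.0145 over the cytosolic enzymes, -0.055 over the mitochondrial ones and -0.0045 over all genes tested. Replicates did not overlap in 12 of 36 genes, 4 higher and 8 lower, against 34.3% of all genes tested (17.1% higher and 17.2% lower). This comparison and the preceding one share their DMSO libraries, so their values stand side by side and their likeness was not tested.

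Most synthetases are well expressed, and genes with a mean of at least 1000 normalized counts were therefore counted separately, a level chosen after the values were seen. Of the 5862 genes at that level, 26.7% were called for R4VPL3-1 against DMSO, 20.8% for VHL-r against DMSO and 2.64% between the compounds. Of the 30 synthetases at that level, 3 (10.0%) and 2 (6.67%) were called against DMSO, and 0 between the compounds.

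The glutamate enzyme of mitochondria, EARS2 (ENSG00000103356, chromosome 16 of GRCh38 from 23520754 to 23557731, minus strand), had 2539, 2488 and 2442 normalized counts in the DMSO libraries. It had 2143, 2239 and 2200 in VHL-r and 2129, 2154 and 2258 in R4VPL3-1. All 6 libraries of treated cells lay below all 3 DMSO libraries, and the treated groups overlapped each other. The log2 fold change was -0.18 (95% interval -0.28 to -0.08, limma adjusted p = 0.0082) for VHL-r and -0.19 (-0.29 to -0.09, limma adjusted p = 0.0045) for R4VPL3-1, each against DMSO. EARS2 was called under all 20 alternatives in both comparisons.

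HARS2 (ENSG00000112855, chromosome 5 from 140691430 to 140699305, plus strand), the mitochondrial histidine enzyme, had 1279, 1349 and 1331 normalized counts in DMSO. It had 1145, 1192 and 1148 in VHL-r and 1195, 1141 and 1171 in R4VPL3-1. Every treated library was again below every DMSO library. The log2 fold change was -0.18 (95% interval -0.30 to -0.07, limma adjusted p = 0.019) for VHL-r and -0.17 (-0.29 to -0.06, limma adjusted p = 0.0212) for R4VPL3-1. The call was lost without DMSO replicate 2 (adjusted p of 0.0867 for VHL-r and 0.0913 for R4VPL3-1 in limma), without DMSO replicate 3 (0.0563 and 0.0599), and without VHL-r replicate 1 (0.0562) or R4VPL3-1 replicate 2 (0.0808) in the comparison each belongs to.

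HARS2 stands head to head with HARS1, the cytosolic histidine enzyme, whose RefSeq start lies at position 140691370 of chromosome 5 and runs the other way from the HARS2 start at 140691455. The 84 bases between both starts are printed because 1 stretch lies upstream of both histidine enzymes, of which HARS2 was called and HARS1 was not. The annotation of the files lets HARS1 reach to 140691537, past the start of HARS2, on the opposite strand, and reads were counted by strand. The 84 bases hold 59.5% G and C, and neither promoter window held TGATGNAA. No letter is marked in capitals, and the stretch is read on the plus strand.
HARS1 to HARS2, chr5:140691371-140691454: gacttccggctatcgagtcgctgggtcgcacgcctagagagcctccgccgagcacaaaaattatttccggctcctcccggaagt
HARS1 had 7363, 7093 and 6910 normalized counts in DMSO, 6974, 7238 and 6937 in VHL-r, and 6928, 7122 and 6617 in R4VPL3-1. Its groups overlapped, and its log2 fold change was -0.01 (95% interval -0.10 to 0.08) for VHL-r and -0.05 (-0.14 to 0.04) for R4VPL3-1, each against DMSO.

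AARS2 (ENSG00000124608, chromosome 6 from 44298731 to 44313347, minus strand), which charges alanine tRNA in mitochondria, had 1353, 1351 and 1321 normalized counts in DMSO. It had 1244, 1308 and 1316 in VHL-r and 1166, 1219 and 1171 in R4VPL3-1. The R4VPL3-1 libraries were below all others, and the VHL-r libraries lay between them and DMSO. The log2 fold change was -0.18 (95% interval -0.29 to -0.07, limma adjusted p = 0.0167) for R4VPL3-1 against DMSO and -0.06 (-0.17 to 0.05, limma adjusted p = 0.519) for VHL-r against DMSO. Between the compounds it was -0.12 (-0.23 to -0.01, limma adjusted p = 0.43), so the test of the difference itself did not pass. The call against DMSO was lost without DMSO replicate 1 (limma adjusted p = 0.0534), DMSO replicate 2 (0.0601) or R4VPL3-1 replicate 1 (0.0649).

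TARS3 (ENSG00000185418, chromosome 15 from 101653596 to 101724473, minus strand), a cytosolic threonine enzyme that resembles TARS1, had 381.4, 371.9 and 364.1 normalized counts in DMSO. It had 499.4, 473.8 and 473.2 in VHL-r and 514.5, 455.7 and 428.2 in R4VPL3-1. All treated libraries were above DMSO, and the spread of the R4VPL3-1 libraries was wider than that of the others. The log2 fold change was 0.37 (95% interval 0.20 to 0.54, limma adjusted p = 0.0022) for VHL-r and 0.32 (0.15 to 0.49, limma adjusted p = 0.0059) for R4VPL3-1. The R4VPL3-1 call was lost without R4VPL3-1 replicate 1 (limma adjusted p = 0.0544), and the VHL-r call was kept under all 20 alternatives. No 100-base window of the TARS3 transcript occurs in TARS1 or in another gene. TARS1 itself, at 10453 ± 342.9 normalized counts in DMSO, had log2 fold changes of -0.04 in both comparisons, with groups that overlapped.

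Among the mitochondrial enzymes that were not called, CARS2 and NARS2, which charge cysteine and asparagine tRNA, had log2 fold changes of 0.10 (limma adjusted p = 0.129) and 0.09 (0.302) in R4VPL3-1 against DMSO. PARS2, the proline enzyme, was among the lowest members, and its log2 fold change was -0.20 (95% interval -0.43 to 0.03) for VHL-r and -0.15 (-0.38 to 0.08) for R4VPL3-1. The interval of SARS2 reached from -0.94 to 0.23 in VHL-r against DMSO, and the depth of this gene cannot show a change of the size seen for the others.

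**Figure D2:**
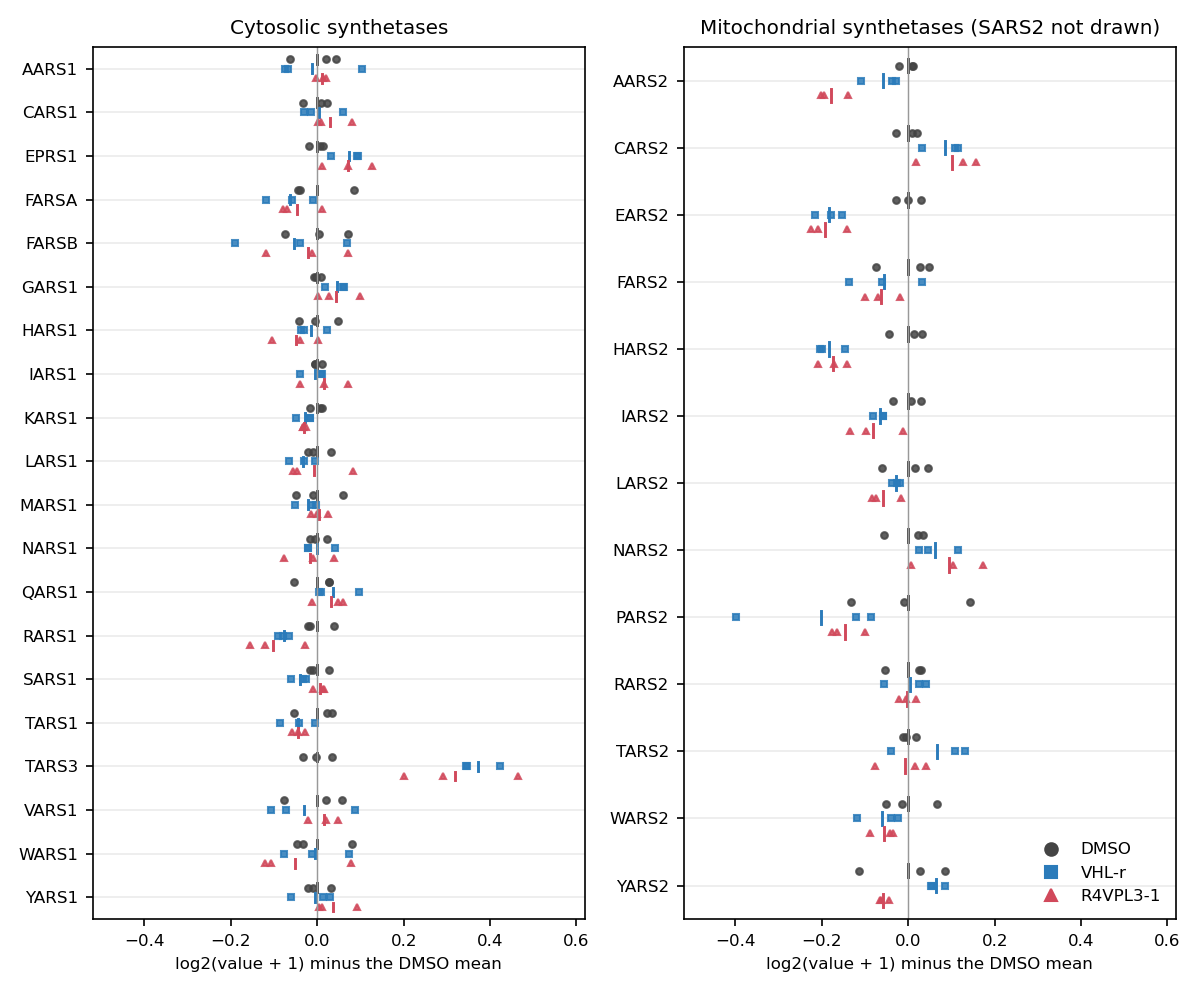
Value of the synthetases drawn in each library as log2(value + 1) minus the mean of the DMSO libraries, with circles for DMSO, squares for VHL-r, triangles for R4VPL3-1 and vertical ticks for group means (n = 3). Most groups overlap around 0, TARS3 lies to the right in all 6 treated libraries, and EARS2 and HARS2 lie to the left.

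The cytosolic enzymes hardly moved. Of the 8 that sit in the multisynthetase complex, EPRS1, KARS1 and RARS1 among them, none was called by limma, edgeR or DESeq2 in any comparison, and their log2 fold changes in R4VPL3-1 against DMSO were between -0.10 and 0.07. Of the 15230 genes tested, 5410 had an unadjusted p under 0.05 in R4VPL3-1 against DMSO, 4609 in VHL-r against DMSO and 1508 between the compounds. By the same threshold, 1 of the 8 passed in R4VPL3-1 against DMSO, and 0 passed in both other comparisons. The lowest was RARS1, with 10390, 10820 and 10409 normalized counts in DMSO against 9460, 9692 and 10334 in R4VPL3-1, where all 3 treated libraries lay below DMSO and the adjusted p was 0.0852 in limma. The highest was EPRS1, a fused glutamate and proline enzyme, with a log2 fold change of 0.07 (95% interval -0.02 to 0.16). The 95% interval of the log2 fold change lay within -0.25 and 0.25 for 20 of 21 cytosolic genes in each comparison with DMSO, the exception being TARS3. Leaving out GARS1 and KARS1, which serve both compartments, gave a cytosolic median of 0.0069 in R4VPL3-1 against DMSO, as with them.

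The genes that serve both compartments stayed close to their DMSO level. GARS1, the glycine enzyme, had 8047, 7957 and 7984 normalized counts in DMSO, 8341, 8327 and 8102 in VHL-r, and 8559, 8010 and 8154 in R4VPL3-1. Its VHL-r libraries lay above DMSO without overlap, and its log2 fold change of 0.05 (95% interval -0.04 to 0.13) was not called. KARS1 had 12441, 12409 and 12201 in DMSO, 12203, 11927 and 12199 in VHL-r, and 12068, 12121 and 12077 in R4VPL3-1. Its R4VPL3-1 libraries were below DMSO without overlap, with a log2 fold change of -0.03 (-0.11 to 0.05) that was not called either.

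The cytosolic phenylalanine enzyme is built of subunits encoded by FARSA and FARSB. FARSA had 14172, 12943 and 12990 normalized counts in DMSO, 12308, 12836 and 13256 in VHL-r, and 12717, 13460 and 12641 in R4VPL3-1. FARSB had 3133, 2990 and 2829 in DMSO, 3127, 2901 and 2615 in VHL-r, and 3130, 2744 and 2957 in R4VPL3-1. Both genes overlapped in all groups, and neither was called. WARS1, the tryptophan enzyme and a known interferon target, ranged from 5811 to 6686 over the 9 libraries, and its groups overlapped too.

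Among the other mitochondrial enzymes, IARS2 had 8353, 8726 and 8589 normalized counts in DMSO, 8221, 8081 and 8209 in VHL-r, and 7793, 7989 and 8490 in R4VPL3-1. Its VHL-r libraries were all below DMSO, whereas 1 R4VPL3-1 library lay within the DMSO range, and it was not called. LARS2, FARS2 and WARS2, which charge leucine, phenylalanine and tryptophan tRNA, had log2 fold changes of -0.06, -0.06 and -0.06 in R4VPL3-1 against DMSO and of -0.03, -0.06 and -0.06 in VHL-r against DMSO. RARS2 and TARS2, for arginine and threonine, had -0.0025 and -0.0065 in R4VPL3-1 and 0.0031 and 0.07 in VHL-r. The replicates of all 5 genes overlapped between treatments and DMSO. The coefficient of variation between replicates had a median of 2.31% to 3.45% over the cytosolic and the mitochondrial genes in each treatment, and the widest was 37.9%, for SARS2 in VHL-r.

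Summed over genes, cytosolic synthetases took 0.55% to 0.572% of all normalized counts in a library, and mitochondrial ones took 0.103% to 0.109%. The mitochondrial sum was 30798, 30933 and 30569 normalized counts in DMSO, 29960, 30145 and 29856 in VHL-r, and 29107, 29549 and 29683 in R4VPL3-1. In this sum each library of treated cells was below each DMSO library, and each R4VPL3-1 library was below each VHL-r library. As a share of all normalized counts, the mitochondrial sum was 0.1057%, 0.1088% and 0.1085% in DMSO and 0.1063%, 0.1067% and 0.1052% in VHL-r. It was 0.1029%, 0.1031% and 0.1049% in R4VPL3-1. By share, VHL-r and DMSO overlapped, and R4VPL3-1 was below both. The cytosolic sum was 160300 ± 2049 (SD, n = 3) in DMSO, 158700 ± 1774 in VHL-r and 159600 ± 2105 in R4VPL3-1, and these groups overlapped. The ratio of the cytosolic to the mitochondrial sum was 5.28, 5.14 and 5.21 in DMSO, 5.27, 5.22 and 5.38 in VHL-r, and 5.48, 5.33 and 5.45 in R4VPL3-1. The VHL-r and DMSO libraries overlapped in this ratio, as did R4VPL3-1 and VHL-r, whereas R4VPL3-1 was above DMSO in all libraries. The sums weigh the few abundant genes most, and no test was made over them.

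The cytosolic and mitochondrial enzymes for one amino acid form 18 pairs, of which 16 had both members tested. The pairs are not all separate: EPRS1 is paired with both EARS2 and PARS2, and FARS2 with both FARSA and FARSB. In DMSO the cytosolic member was the higher one per kb in most pairs, with a median ratio of 6.53 and a range from 0.468 for CARS1 and CARS2 to 152 for SARS1 and SARS2, the latter with the shared reads named above. In R4VPL3-1 against DMSO the cytosolic member had the higher log2 fold change in 11 of 16 pairs, with a median difference of 0.05. In VHL-r against DMSO it did in 9 of 16, with a median difference of 0.0031. The widest gaps in R4VPL3-1 against DMSO were EPRS1 over EARS2 at 0.26, EPRS1 over PARS2 at 0.22 and AARS1 over AARS2 at 0.19. In the other direction NARS2 was above NARS1 by 0.11 (difference of -0.11), and RARS2 was above RARS1 by 0.10 (-0.10). No pair had both members called in opposite directions, and the gap within a pair was not tested.

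R4VPL3-1 and VHL-r were compared with each other at the same dose and time, in 36 synthetases. R4VPL3-1 carries the RNF4-binding moiety that VHL-r lacks. None of the 36 was called between them by limma, edgeR or DESeq2, against a background of 1.87% called by limma. At an unadjusted p under 0.05 in limma, 2 of the 36, AARS2 and YARS2, passed, against 1508 of the 15230 genes tested. For 34 of 36 genes the 95% interval of the difference lay within -0.25 and 0.25 on the log2 scale, and for SARS2 it reached 0.95. For EARS2 the difference was -0.0091 (95% interval -0.11 to 0.09), for HARS2 it was 0.0092 (-0.10 to 0.12), and for TARS3 it was -0.05 (-0.22 to 0.12). YARS2, the mitochondrial tyrosine enzyme, had 1316, 1313 and 1345 normalized counts in VHL-r and 1212, 1229 and 1210 in R4VPL3-1, which did not overlap, while its DMSO libraries at 1344, 1292 and 1171 spanned both groups. Its difference was -0.12 (-0.24 to -0.0021, limma adjusted p = 0.489). Groups did not overlap in 5 of 36 genes, against 14.1% of all genes tested. The median difference was 0.016 over the cytosolic enzymes and -0.0084 over the mitochondrial ones.

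**Figure D3:**
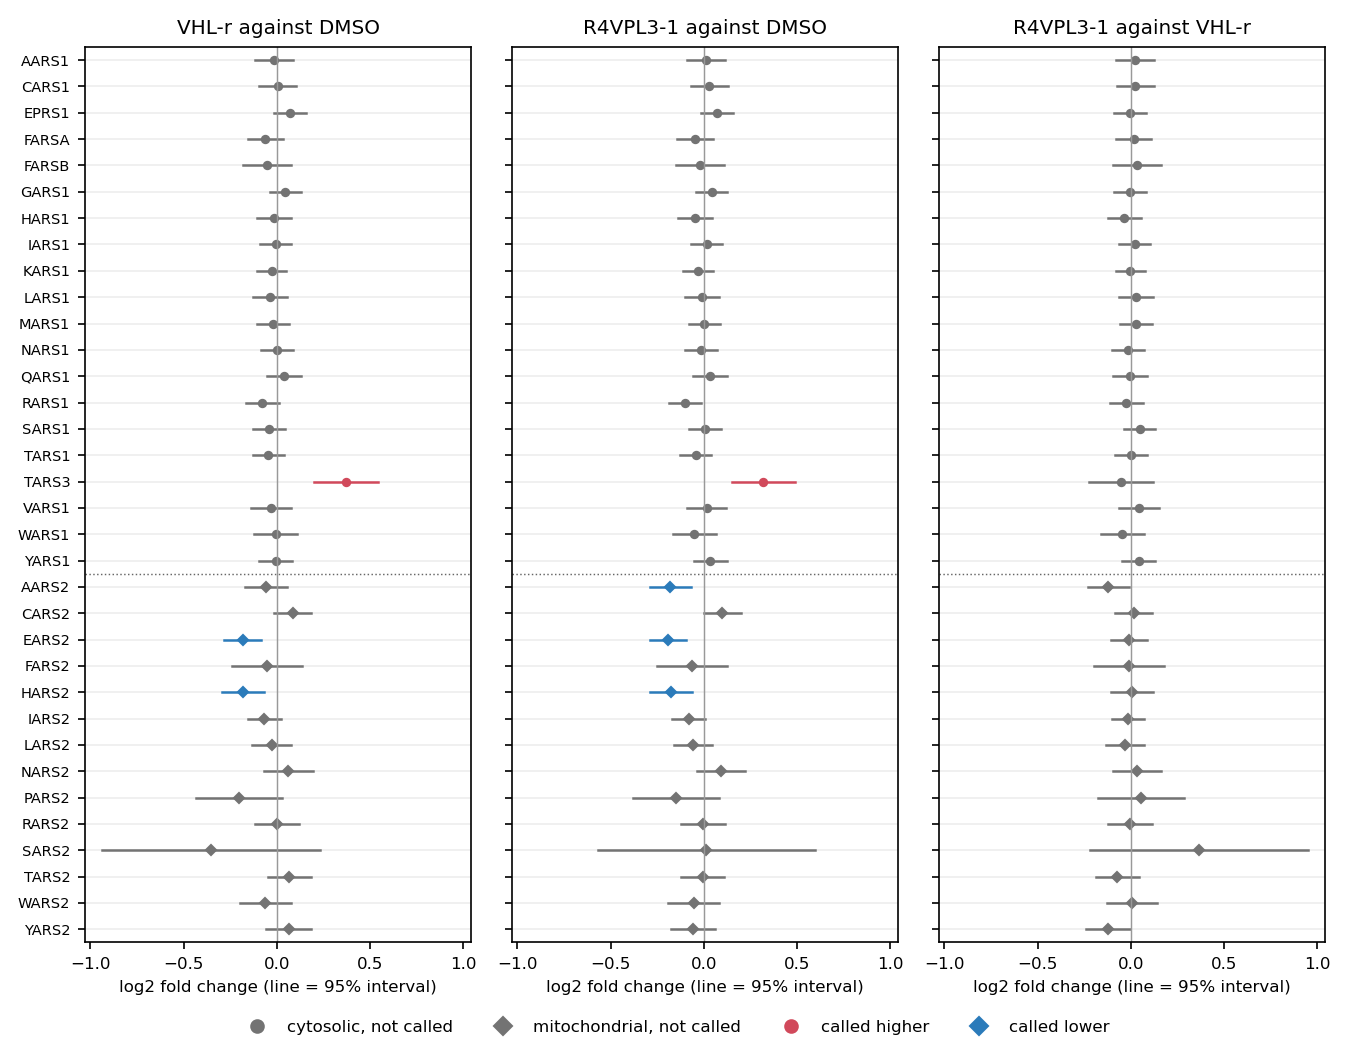
Log2 fold change of 34 of the 36 tested synthetases in the 3 comparisons, with the 95% interval from limma as a line; cytosolic genes are above the dotted line and mitochondrial ones below it. TARS3 is called higher and EARS2 and HARS2 lower against DMSO with both compounds, AARS2 lower with R4VPL3-1, and no gene is called between the compounds.

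The 8 synthetases with TGATGNAA in a promoter window were not called in any comparison by limma, edgeR or DESeq2. At an unadjusted p under 0.05 limma gave 1 of them, YARS2, in R4VPL3-1 against VHL-r, where 1508 of 15230 genes tested passed. The log2 fold changes of the 8 lay between -0.06 and 0.04 in R4VPL3-1 against DMSO and between -0.04 and 0.06 in VHL-r against DMSO. AARS2 and TARS3, which were called, had no promoter window, so whether they hold the element is not known here. ATF4 (ENSG00000128272, chromosome 22 from 39519695 to 39522683) had 6425, 6186 and 6386 normalized counts in DMSO, 7375, 7428 and 7756 in VHL-r, and 10208, 10081 and 9552 in R4VPL3-1. The 3 groups did not overlap, and the log2 fold change against DMSO was 0.65 (limma adjusted p = 2.27e-10) for R4VPL3-1 and 0.25 (limma adjusted p = 1.80e-04) for VHL-r. This is the level of the mRNA; the ATF4 protein was not measured here. Of 17 tested genes in the list of other known ATF4 targets, 8 rose and 1, SLC7A5, fell in R4VPL3-1 against DMSO, where 13.1% of all genes tested were higher and 11.8% lower. In VHL-r against DMSO 5 of the 17 rose, with 10.3% of all genes higher. SLC7A5, a transporter of large amino acids, had 61735, 52953 and 48184 normalized counts in DMSO and 47357, 50938 and 43923 in R4VPL3-1, which overlapped. Its log2 fold change was -0.19 (limma adjusted p = 0.0461), and 13 of 20 alternatives lost the call, among them DESeq2 (adjusted p of 0.19) and the fit without DMSO replicate 1, where it was -0.09 (0.296).

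Of the 4 tested target genes with the element, CHAC1, ATF3 and SLC3A2 rose in R4VPL3-1 against DMSO. CHAC1, an enzyme that breaks down glutathione, had 146.2, 114.1 and 109.5 normalized counts in DMSO, 205.2, 253.2 and 248.9 in VHL-r, and 981.4, 789 and 550.3 in R4VPL3-1. The groups did not overlap, and the log2 fold change was 2.61 in R4VPL3-1 and 0.94 in VHL-r. AARS1, which holds the same element, had 6385, 6023 and 6487 in DMSO, 6010, 5974 and 6767 in VHL-r, and 6351, 6285 and 6388 in R4VPL3-1, and these groups overlapped. TARS1, with the element at its start, ranged from 9836 to 10692 over the 9 libraries. Over all 320 tested genes with the element in a window, 10.6% were called higher and 20% lower in R4VPL3-1 against DMSO, with a median log2 fold change of -0.04. Among the 10627 tested genes whose windows lack it, 12.7% were called higher and 12.4% lower, with a median of -0.0092, and no test was made between these shares. The list of targets was written with earlier results of these libraries known, and its count is a description.

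**Figure D4:**
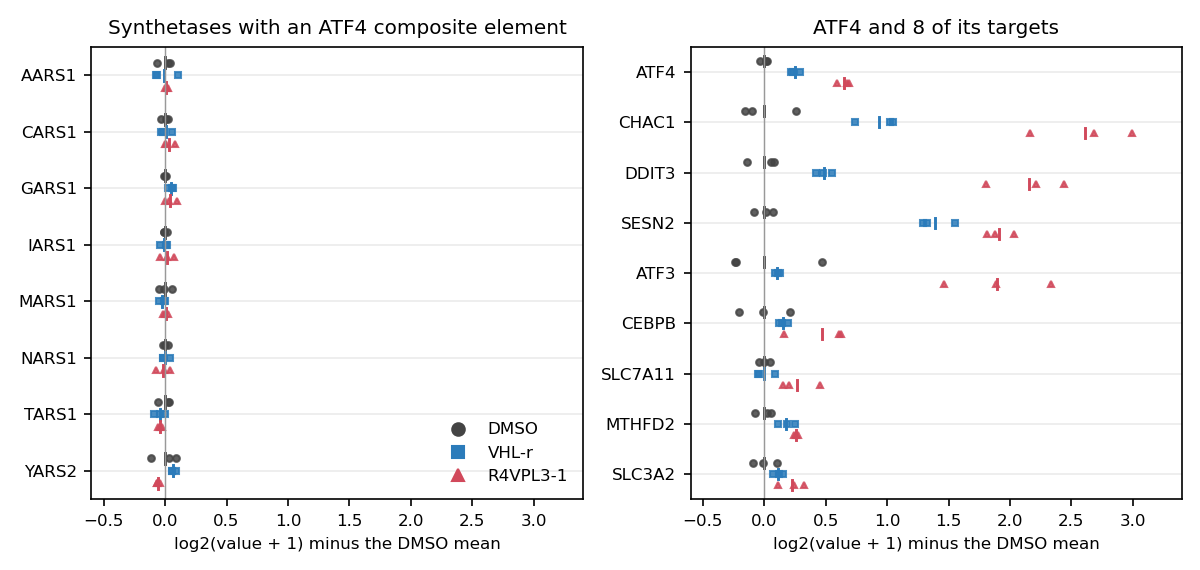
The 8 synthetases with TGATGNAA in a promoter window (left) and ATF4 with 8 genes known as its targets (right). Values are log2(value + 1) minus the DMSO mean in each of 9 libraries, on 1 common axis, and ticks mark group means (n = 3). The 8 targets drawn are those of 17 tested that were called higher in R4VPL3-1 against DMSO, and the others are not drawn. The synthetases lie around 0 in all groups, and CHAC1, DDIT3, SESN2 and ATF3 have log2 fold changes of 1.89 to 2.61 in R4VPL3-1.

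Other patterns of letters were also searched on both strands of the same windows; none of the 3 patterns contains another. The E-box CACGTG, known as a site of MYC and of MITF and TFE3, was found in 4 of 30 synthetases (13.3%), IARS1, EARS2, CARS2 and MARS2, against 8.77% of all genes with a window. The site of the nuclear respiratory factor NRF1, GCGCA and GCGC with any base between them, was found in 6 of 30, SARS1, TARS1, FARSB, IARS2, PARS2 and MARS2, against 6.98% of all genes. Among tested holders of the E-box, EARS2 fell against DMSO, and IARS1 and CARS2 were not called. None of the 5 tested holders of the NRF1 pattern was called by limma, edgeR or DESeq2, and none had an unadjusted p under 0.05 in limma. Of the 15230 genes tested, 5410 had such a p in R4VPL3-1 against DMSO, 4609 in VHL-r against DMSO and 1508 between the compounds. The called AARS2 and TARS3, without a window, were not searched for these patterns either.

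Genes that work beside the synthetases were taken from a list of 22, of which 18 were tested. Of the 18, 3 (16.7%) rose and none fell with R4VPL3-1 by limma, against 13.1% higher and 11.8% lower of all genes tested. None was called with VHL-r against DMSO by limma, edgeR or DESeq2, against 19.8% of all genes by limma, and 4 of the 18 had an unadjusted p under 0.05 in limma, against 30.3% of all genes. SEPSECS, which completes selenocysteine on its tRNA, had 436.8, 501.8 and 509.1 normalized counts in DMSO, 585.4, 515.8 and 591 in VHL-r, and 591.1, 585 and 619.9 in R4VPL3-1. All treated libraries were above DMSO, with log2 fold changes of 0.31 (limma adjusted p = 0.0058) for R4VPL3-1 and 0.23 (0.052) for VHL-r. In VHL-r, 6 of 20 alternatives called it. GATC, a subunit of the mitochondrial amidotransferase that makes glutaminyl-tRNA, had log2 fold changes of 0.18 (limma adjusted p = 0.0232) and 0.15 (0.0677) in the same order. The R4VPL3-1 call of GATC was lost without DMSO replicate 2 (limma adjusted p = 0.0832), DMSO replicate 3 (0.0571), R4VPL3-1 replicate 1 (0.0511) or R4VPL3-1 replicate 2 (0.111), and 2 of 20 alternatives called it in VHL-r. EEF1D, a subunit of the factor that recharges the elongation factor carrying charged tRNA to the ribosome, had 0.14 (limma adjusted p = 0.0346) for R4VPL3-1, a call that 6 of 20 alternatives lost. The scaffold proteins AIMP1 and AIMP2 of the multisynthetase complex were not called, except that AIMP2 was called lower in VHL-r against DMSO under 2 of 20 alternatives. EEF1E1, AARSD1 and DTD2 were listed at 0, and EEF1G averaged 0.111, all without a test. Windows shared with other genes were searched for in the synthetases only. Whether reads of these genes, or of ASNS and MLANA, were dropped was therefore not tested, and their values do not show absence of the RNA.

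EIF2AK4, the sensor GCN2 named above, was lower with both compounds. It had 6007, 5863 and 5538 normalized counts in DMSO, 5314, 5262 and 5343 in VHL-r, and 5104, 5279 and 5308 in R4VPL3-1. No treated library reached the lowest DMSO library, and the log2 fold change was -0.15 (limma adjusted p = 0.0134) for R4VPL3-1 and -0.13 (0.0395) for VHL-r. The calls were lost in 3 and 7 of the 20 alternatives.

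Of the 10 tested markers of the line, 5 were called lower in R4VPL3-1 against DMSO (SOX10, MITF, TFAP2A, NGFR and AXL), where 11.8% of all genes tested were lower. In VHL-r against DMSO 3 were called lower (SOX10, MITF and AXL), with 9.51% of all genes lower. None was called higher in either comparison, and AXL kept its call under 16 of 20 alternatives in each. SOX10, the neural crest transcription factor, had 17699, 17007 and 17935 normalized counts in DMSO, 9133, 10250 and 11216 in VHL-r, and 7900, 8562 and 8752 in R4VPL3-1. The summed level of the 12 melanoma and neural crest markers was 49969 to 52877 in DMSO, 40848 to 44943 in VHL-r and 39161 to 42093 in R4VPL3-1. Most of this difference lay in SOX10: without it, the sum of the other 11 was 32962 to 35093, 30857 to 33727 and 31261 to 33531, and these groups overlapped. CSPG4, the other abundant marker, averaged 14415 in DMSO and 15435 in R4VPL3-1 and was not called. The summed level of the 7 markers of other cells was 2244 to 2341, 2038 to 2233 and 1944 to 2086 in the same order, and none of the 7 was at 0 in all libraries. The part of these changes in the synthetase values was not tested, and in bulk RNA a lower share of cells and less RNA per cell cannot be told apart.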

How the data were processed

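Poly(A) RNA of A375R cells was made into strand-specific libraries and read from one end over 100 bases. According to the methods, STAR aligned the reads to GRCh38 (Ensembl annotation), htseq-count in reverse mode assigned them to genes, and DESeq2 1.36.0 normalized the counts. The authors deposited a normalized signal, reads per gene divided by the DESeq2 size factor of the library, with 2 decimals. Whole reads could be recovered for 100% of the values in every library, within rounding to 2 decimals, with size factors of 0.934 to 1.10. Intervals are those of the fit and cover the spread between the replicates, whose source is given as biological repeats.

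The main test was limma 3.58.1 (R 4.3.3) with its trend option on log2(value + 1), over 15230 genes whose mean over the 9 libraries was 10 or more. One model with treatment as the only factor held all 9 libraries, and 3 contrasts were read from it with Benjamini-Hochberg adjustment over all genes tested; called means an adjusted p of at most 0.05. The added 1 makes fold changes of low genes too small. With 3 libraries against 3, an exact permutation test cannot give a p below 0.1. The fit was run on simulated data as a check of the program, and no result given here rests on that check. Transcript lengths, exons and 100-base windows came from GENCODE 44, matched for 62639 of 62710 genes, and promoter windows from RefSeq. Alternatives were pseudocounts of 0.1 and 5, no filter, a mean of at least 50, TMM and upper-quartile scaling, a replicate block, the robust option of limma, count models on the recovered reads (DESeq2 1.42.0 and edgeR 4.0.16), fits of only the 6 libraries compared, and fits without each replicate.

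Any member could be named, but the single values of 2 members are not reported here. Values in every library were given for called members, and companion genes were named where called in a comparison, with ATF4. Other named genes were chosen after their values were seen. The members and lists were chosen with earlier results of these data known. The libraries were constructed together, and no batch is given in the labels.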

Additional observations from a re-analysis of the deposited data

How the results depend on the processing

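The count of synthetases called in R4VPL3-1 against DMSO was 4 to 5 under the 11 other settings and 2 to 6 when each replicate was left out. It was 2 without DMSO replicate 2 and 2 without R4VPL3-1 replicate 1; these fits hold fewer libraries. The count in VHL-r against DMSO was 3 under the other settings and 2 to 3 with a replicate left out, and it was 0 between the compounds in all 20 alternatives. Without each replicate in turn, the cytosolic median of R4VPL3-1 against DMSO ranged from -0.018 to 0.020, its sign turning without DMSO replicate 2 or DMSO replicate 3, and under upper-quartile scaling it was 0.025. The mitochondrial median ranged from -0.081 to -0.036 for R4VPL3-1 and from -0.061 to -0.029 for VHL-r, each against DMSO, and stayed below 0 in all alternatives; the cause of these shifts was not tested. With each replicate left out, CARS2 (limma adjusted p = 0.0318) and RARS1 (0.0198) gained a call in R4VPL3-1 against DMSO without R4VPL3-1 replicate 3. No call of a synthetase changed direction, while 34, 27 and 59 of 719 uncalled or called values changed sign in R4VPL3-1 against DMSO, VHL-r against DMSO and between the compounds, none of them called. Whether replicate numbers pair the libraries could not be told from these values. Same-numbered libraries correlated at -0.0056 to 0.121 in their deviations from the group means. Differently numbered ones correlated at -0.148 to 0.0982, highest between DMSO replicate 1 and R4VPL3-1 replicate 2. On the third axis of a principal component analysis (9.11% of the variance), the replicate 3 libraries stood at 16.2, 10.3 and 14.1. All other libraries stood at -12.6 to -2.5 on it. With the replicate block, 4, 3 and 0 synthetases were called. Among the 18 tested genes that work beside the synthetases, the replicate block gave AIMP2 (-0.13, limma adjusted p = 0.0463) and SEPSECS (0.23, 0.0339) a call in VHL-r against DMSO, as did the fit without DMSO replicate 3 (0.0302 and 0.0429). At these depths the low value of SARS2 limits what can be seen for it.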
